A study of Mus musculus with 28 samples.

Results

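Neutrophil transcripts were followed through 9 genes: Mpo, Elane, Ngp, Camp, Mmp8, S100a8, S100a9, Retnlg and Csf3r. They were chosen by name, as genes known for their use by neutrophils, and are 9 of the 35858 gene symbols in the set 2 files and 9 of the 24849 rows of the set 1 table. All 9 were found in both tables. The mice carry a transgene (A3B), the human cytidine deaminase APOBEC3B joined to the green fluorescent protein turboGFP, at ColA1 under a tetO promoter that responds to tetracyclines. It is switched on by the CAGs-rtTA3 driver, which is active in many tissues, when the animals eat doxycycline at 625 ppm in their food.

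RNA-seq of 28 tissue samples from adult mice was available in 2 sets, which were quantified separately and are never set against each other as levels. In set 2, 6 A3B livers and 6 A3B pancreases were compared with 2 control livers and 2 control pancreases, all labelled with 10 days of doxycycline. In set 1, 3 A3B livers (10 to 14 days) and 3 A3B lungs (10 days) were compared with 3 control livers and 3 control lungs labelled with 15 days. Of these livers, A3B liver 70 has 10 days and A3B livers 23 and 28 have 14 days. A3B animals are double transgenic (A3B + CAGS-rtTA), and the controls carry mostly A3B or, for lung 87, the driver alone (CAGs). Several labels disagree: the genotype field gives A3B alone for A3B pancreases 44 and 137, and A3B + CAGS-rtTA for control pancreases 45 and 168 and for control liver 11. The treatment labels and the study's methods give doxycycline for the controls, while another passage of its text, on 2 control animals, describes them as without it. Groups were taken from the sample titles, and samples are named by tissue and mouse number. Replicates are different mice, but the same mouse gave more than 1 tissue in 9 cases (125, 137, 153, 44, 49, 45 and 168 in set 2, 70 and 91 in set 1).

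Neutrophils are short-lived white cells made in the bone marrow under the cytokine G-CSF, which acts through the receptor encoded by Csf3r. Their granules are filled in order as the cell matures: azurophil granules first, with Mpo and Elane made in early precursors, then specific granules, with Ngp and Camp, then gelatinase granules, to which proteases such as Mmp8 are close in timing. Mature cells that leave the marrow and enter tissues hold large amounts of S100a8, S100a9 and Retnlg transcripts and little transcript of the granule genes. In healthy liver and pancreas neutrophils are few, while the lung vessels hold many.

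The livers and pancreases of set 2 were deeply sequenced, with 65161064 to 98780481 estimated counts in A3B libraries and 87288183 to 118976013 in controls; the depth behind set 1 is unknown. In set 1 the human transgene row lay between 90.6 and 1705 TPM (a transcript's length-corrected share of its library) in A3B samples and between 0.0928 and 0.526 TPM in controls, so those labels and the transgene go together; the transgene was not analysed here in set 2. The defining markers of each labelled tissue were present: hepatocyte markers summed to at least 37382 TPM in set 2 livers, acinar markers to at least 61090 TPM in set 2 pancreases and lung epithelial markers to at least 18100 TPM in the lungs. Levels in set 2 are given on 2 scales, TPM and counts scaled by TMM (trimmed mean of M values), and they can give different answers, above all in the pancreas. The TMM factors of the control pancreases were 0.21 and 0.443, against 1.30 to 1.79 in the A3B pancreases, so that a transcript with the same TPM in all libraries counts as lower in A3B pancreas after TMM. In TPM, 70.8% of all genes tested in pancreas had every A3B sample above both controls. Single libraries also stand apart: A3B liver 49 and A3B pancreas 53 hold the highest level of most of the 9 genes, and values without them are given where they matter. In whole tissue, more neutrophils, more transcript per cell and transcript from other cells cannot be told apart.

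Few of the 9 genes passed the test for a change. With edgeR's quasi-likelihood test and Benjamini-Hochberg adjustment over all genes, 0 of the 8 genes tested in set 2 liver passed, where 3.66% of all genes did; 4 of the 8 had an unadjusted p under 0.05 (22.9% of all genes), and DESeq2 called 3 of 9, S100a9, Retnlg and Mmp8 (13.1% of all genes). In pancreas 2 of 9 passed, Csf3r and Mmp8, both higher in A3B, where 31.9% of all genes passed and 17% passed as higher. In set 1, with limma on log2(TPM + 1), 0 of 4 tested passed in liver (7.93% of all genes; 3 of the 4 had an unadjusted p under 0.05, as did 32.6% of all genes) and 2 of 6 in lung, Ngp and Mmp8 (36.8% of all genes, and 16.1% as higher). Ngp and Mmp8 were also higher in A3B. With so few genes these counts are a description, and the values per sample follow by role.

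**Figure D1:**
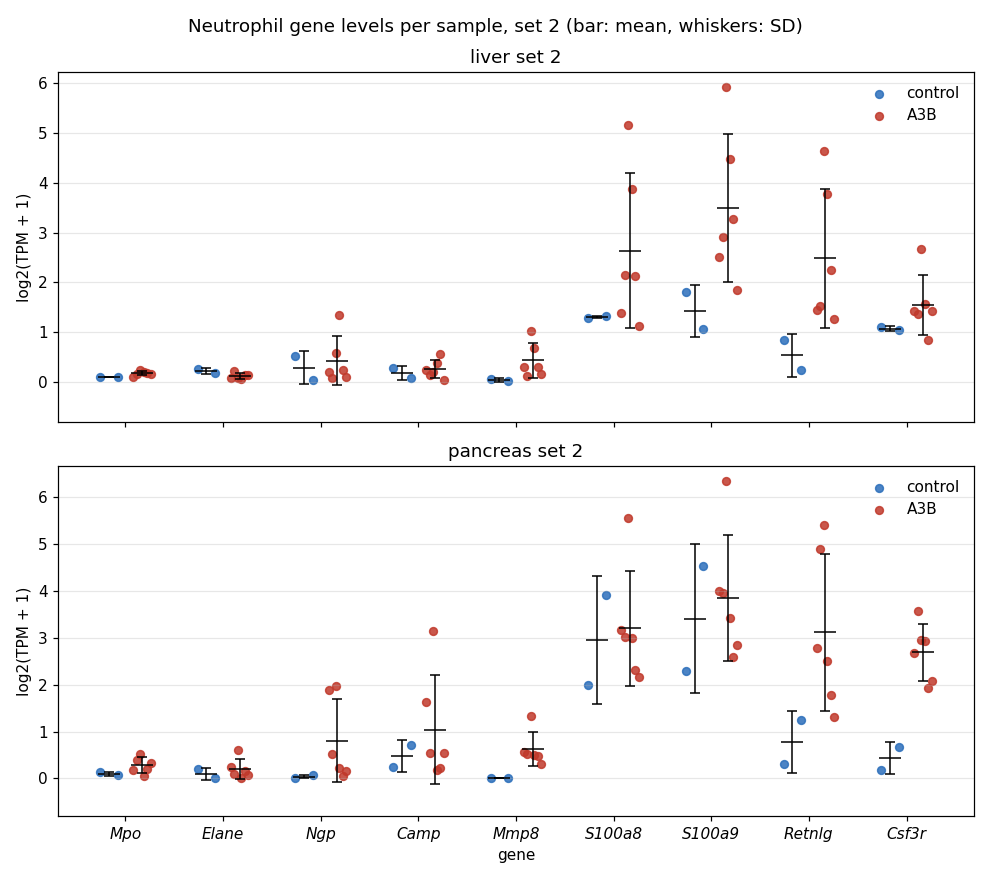
Levels of the 9 genes in the livers and pancreases of set 2, as log2(TPM + 1), with 1 point per sample, the mean as a bar and the SD as whiskers; controls are blue (n = 2) and A3B samples red (n = 6). In liver S100a9, Retnlg, Mpo and Mmp8 have all 6 A3B samples above both controls, and in pancreas Retnlg, Csf3r and Mmp8 do. Of all genes tested, 24.3% do so in liver and 70.8% in pancreas.

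Mpo, the myeloperoxidase of azurophil granules, was low, at under 1 TPM in every sample. In set 2 liver it was estimated at 3 and 6 counts in the controls and 12.1 to 20.4 counts in the 6 A3B livers. In TPM the controls had 0.0669 and 0.0732, and the A3B livers had 0.0783 at the lowest, a median of 0.129 and 0.178 at the highest. The A3B livers thus lay above both controls without overlap, as did 24.3% of all genes tested in liver. Mpo had a log2 fold change of 1.83 ± 0.71 (SE) there, with an adjusted p of 0.167 by edgeR; it was 1.25 without control 45 and 2.47 without control 168. In pancreas Mpo had 4 and 10 counts in the controls and 5.08 to 82.5 counts in A3B, and the groups overlapped; the log2 fold change was -0.02 ± 0.91 after TMM. In set 1 Mpo was listed at no more than 0.265 TPM in any sample and was not tested. An antisense gene, Gm11505, overlaps Mpo, and whether the quantification kept the strands apart was not stated.

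Elane, neutrophil elastase, is made at the same stage as Mpo. It was estimated at 9 and 13 counts in the control livers of set 2 and at 2 to 9 counts in the A3B livers, too few to be tested. In the pancreas the controls had 0 and 10 counts and the A3B samples 0 to 12 counts, except A3B pancreas 53 with 35. The fitted log2 fold change of -1.62 ± 1.51 in pancreas, with an adjusted p of 0.437, turned to 6.17 when control 45 was left out, so it has no stable sign. In set 1 Elane was listed at 0 in all 12 samples, as were the 4 haemoglobin genes, so that table gives no information on it.

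Ngp (neutrophilic granule protein) and Camp (cathelicidin, an antimicrobial peptide), both of specific granules, were also low in set 2. Ngp in the control livers had 0.0349 and 0.445 TPM, and in the A3B livers 0.0589 at the lowest, a median of 0.166 and 1.56 at the highest, in A3B liver 125. The groups overlapped, and the fitted log2 fold change of 0.57 ± 1.33 became -0.71 without A3B liver 125. In pancreas Ngp had 1 and 4 counts in the controls, and 3, 9, 13, 31, 217 and 255 counts in A3B mice 137, 153, 125, 49, 44 and 53. The high levels came from A3B pancreases 44 and 53, with 2.68 and 2.92 TPM, and the other A3B pancreases had at most 0.441 TPM. Ngp had a log2 fold change of 3.14 ± 1.93, with an adjusted p of 0.242.

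In the lungs of set 1, Ngp was higher in A3B and passed the test. The controls had 0.581, 1.11 and 3.97 TPM and the A3B lungs 5.11, 7.99 and 9.65 TPM, with no overlap, as in 23.3% of all genes tested in lung. The log2 fold change, on the log2(TPM + 1) scale, was 1.71 ± 0.46, with an adjusted p of 0.0314 by limma. The call was lost in 4 of the 6 fits that left out 1 sample, with adjusted p reaching 0.101 (without control 88 or 91, or without A3B 69 or 70). In set 1 liver Ngp had 0, 0.0796 and 0.369 TPM in controls, and 0.16, 3.89 and 11.8 TPM in A3B livers 70, 23 and 28. A3B liver 70, the only 10-day A3B liver of set 1, lay within the controls. The log2 fold change of 1.87 ± 0.79 had an adjusted p of 0.148. Without A3B liver 70 it was 2.80, with an adjusted p of 0.0256.

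Camp followed Ngp only in part. In the control pancreases it had 9 and 33 counts, and in A3B pancreases 6 to 95 counts, with 386 in A3B pancreas 53. Its log2 fold change was 0.08 ± 1.46 in pancreas, -1.34 without A3B pancreas 53, and 0.30 ± 0.97 in set 2 liver, where no library had more than 18 counts. In set 1 it reached at most 0.47 TPM in liver and 1.18 TPM in lung, with overlapping groups, and was below the level needed for a test.

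Mmp8, the neutrophil collagenase, was the gene with the clearest separation. In pancreas both controls had 0 counts, while the 6 A3B pancreases had 41, 67, 67, 73, 84 and 286 counts. In TPM the A3B pancreases had 0.243 at the lowest, a median of 0.431 and 1.53 at the highest, in A3B pancreas 53. Set against a floor of 3 counts in each control library, the mean of the A3B pancreases in TMM-scaled CPM (counts scaled to a common library size), 0.823, was at least 6.99-fold higher. This change passed the test with an adjusted p of 0.00456 and in each of the 8 fits that left out 1 sample, with adjusted p from 0.00381 to 0.0257. Its level was under 1 TPM in 5 of the 6 A3B pancreases, and limma on log2(TPM + 1) did not test it because its mean lay below 1 TPM.

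In set 2 liver Mmp8 had 2 and 9 counts in the controls and 13, 16, 35, 36, 84 and 134 counts in A3B livers 48, 153, 137, 44, 125 and 49. All 6 A3B livers lay above both controls, with 0.0894 to 1.03 TPM against 0.0108 and 0.0486 TPM, as did 24.3% of all genes tested there. In this liver comparison the log2 fold change was 3.34 ± 1.20, with an adjusted p of 0.142 by edgeR and 0.0151 by DESeq2. It ran from 2.62 without control 168 to 4.47 without control 45, and was 2.72 without A3B liver 49. In set 1 liver the controls had 0, 0.0254 and 0.0869 TPM and the A3B livers 0.35, 1.01 and 2.59 TPM, again without overlap, as in 28.5% of genes tested there, but below the mean level set for a test. In the lung Mmp8 was higher in A3B: the controls had 2.72, 3.37 and 4.68 TPM and the A3B lungs 8.50, 11.2 and 28.5 TPM. The log2 fold change was 1.74 ± 0.44, with an adjusted p of 0.0266 by limma, and the call was lost in 3 of the 6 fits that left out 1 sample (without control 87 or 91, or without A3B 70), with adjusted p reaching 0.0848. Mmp8 and Retnlg had every A3B sample above every control in TPM in each of the 4 tissue comparisons, as did 4.7% of the 16569 genes of both tables with a value above 0 in each comparison.

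**Figure D2:**
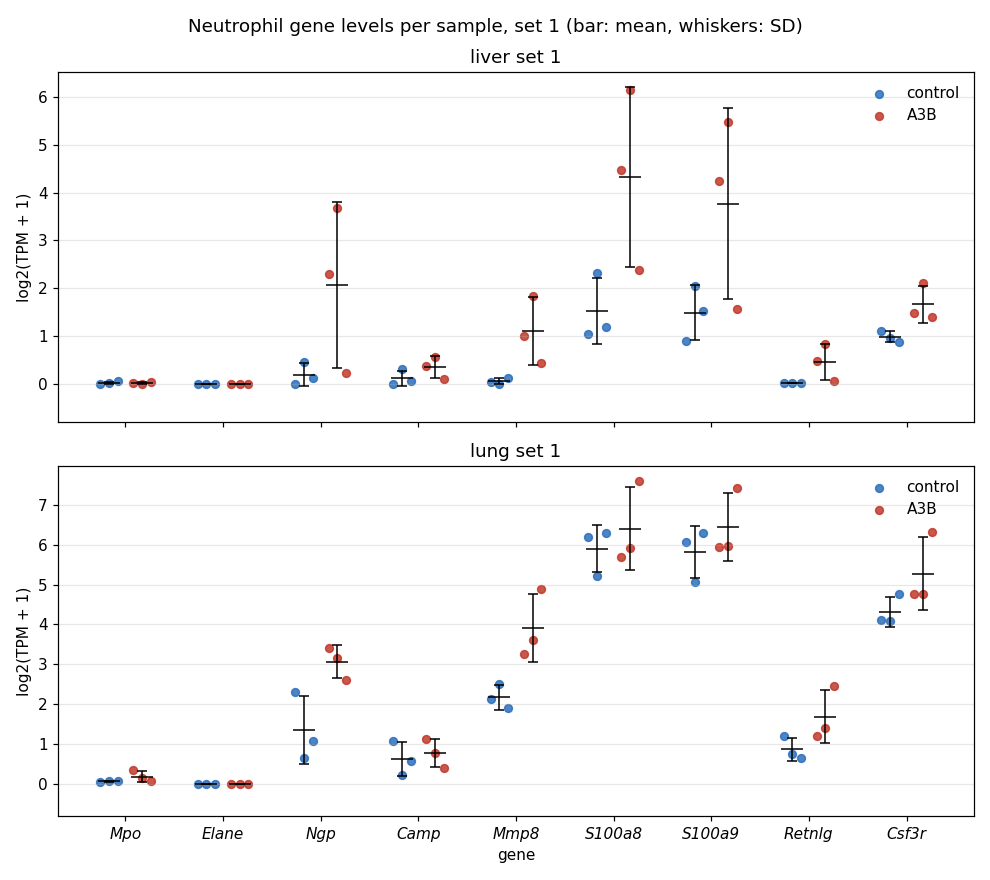
Levels of the 9 genes in the livers and lungs of set 1, as log2(TPM + 1), with 1 point per sample, the mean as a bar and the SD as whiskers; controls are blue and A3B samples red (n = 3 each). Elane is at 0 throughout. Ngp, Mmp8 and Retnlg separate the groups in lung, as do 23.3% of all genes tested there. A3B liver 70 (10 days of doxycycline) lies far below A3B livers 23 and 28 (14 days) for S100a8 and S100a9.

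S100a8 and S100a9 encode both subunits of calprotectin, a calcium-binding protein that fills the neutrophil cytosol and is released as an alarm signal. They lie 22596 bases apart on chromosome 3 and are transcribed toward each other, S100a8 from 90668978 to 90670035 on the plus strand and S100a9 from 90692632 to 90695721 on the minus strand (GRCm38). Their promoters are printed because they encode the subunits of 1 protein and lie side by side, and that of Mmp8, chromosome 9, because it is the gene that was at 0 in the control pancreases. The windows run from 250 bases before to 50 bases after the RefSeq start (GRCm38.p6), 5′ to 3′ on the gene's own strand: S100a8 chr3:90668821-90669120 (plus), S100a9 chr3:90695672-90695971 (minus) and Mmp8 chr9:7558179-7558478 (plus). Capitals mark matches on either strand to 3 motifs, the C/EBP form TTNNGNAA, the PU.1/ETS form GGAAGT and the TATA form TATAAA.
S100a8: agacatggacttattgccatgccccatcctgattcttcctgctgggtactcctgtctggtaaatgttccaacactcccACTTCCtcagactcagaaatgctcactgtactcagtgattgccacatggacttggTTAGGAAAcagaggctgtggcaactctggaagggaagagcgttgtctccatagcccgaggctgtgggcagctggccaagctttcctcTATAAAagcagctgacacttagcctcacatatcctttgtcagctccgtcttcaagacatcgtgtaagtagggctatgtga
S100a9: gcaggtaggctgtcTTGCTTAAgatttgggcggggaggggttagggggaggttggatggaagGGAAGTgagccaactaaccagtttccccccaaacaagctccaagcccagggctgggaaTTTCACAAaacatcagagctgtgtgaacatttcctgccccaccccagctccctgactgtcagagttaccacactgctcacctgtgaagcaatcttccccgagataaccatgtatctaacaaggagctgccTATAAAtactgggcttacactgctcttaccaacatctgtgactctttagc
Mmp8: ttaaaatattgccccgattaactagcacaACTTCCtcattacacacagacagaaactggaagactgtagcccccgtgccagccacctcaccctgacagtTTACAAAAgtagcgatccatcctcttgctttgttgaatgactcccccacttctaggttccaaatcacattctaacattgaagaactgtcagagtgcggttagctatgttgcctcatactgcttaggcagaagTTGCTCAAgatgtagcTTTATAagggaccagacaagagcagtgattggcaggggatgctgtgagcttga
All 3 of these windows hold all 3 motifs, and no other gene of the 9 does. The TATA letters begin at -30 from the start in S100a8 but at 1 in S100a9. In Mmp8 they are on the minus strand, at -3. Among the 9 promoters the C/EBP letters occur in 5 (S100a8, S100a9, Retnlg, Ngp and Mmp8), against 40.7% of 32851 promoters of the same length. The PU.1/ETS letters occur in 5 (S100a8, S100a9, Elane, Mpo and Mmp8), against 23.8%, and the TATA letters in 3, against 13.6%. The AP-1 form TGANTCA was found in 0 of the 9 and in 7.81% of all promoters. The Csf3r and Camp windows hold none of the 4. These are matches of letters, not measured binding.

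In set 2 liver, S100a8 had 1.44 and 1.49 TPM in the controls, and 1.19, 1.61, 3.39, 3.47, 13.7 and 35.0 TPM in A3B livers 153, 44, 137, 48, 125 and 49. Of the A3B livers 5 lay above both controls, A3B liver 44 by little, and the log2 fold change of 2.42 ± 1.40 had an adjusted p of 0.330. S100a9 had 1.08 and 2.49 TPM in the controls, and 2.58, 4.67, 6.54, 8.70, 21.3 and 60.1 TPM in the same A3B livers 153, 44, 48, 137, 125 and 49. Here all 6 lay above both controls in TPM, A3B liver 153 narrowly, as did 24.3% of all genes tested in liver. After TMM scaling the groups overlapped. The log2 fold change was 3.02 ± 1.30, with an adjusted p of 0.203 by edgeR and 0.0344 by DESeq2. Without A3B liver 49 it was 2.0, and for S100a8 1.34.

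In the livers of set 1 the same 2 genes again varied widely among A3B mice. A3B liver 70 is labelled with 10 days of doxycycline and A3B livers 23 and 28 with 14 days, and the part of treatment time was not tested. S100a8 had 1.06, 1.29 and 3.97 TPM in the controls and 4.24, 21.2 and 70.1 TPM in A3B livers 70, 23 and 28. S100a9 had 0.853, 1.86 and 3.12 TPM in the controls and 1.96, 18 and 43.7 TPM in the same A3B livers. A3B livers 23 and 28 lay well above the controls, while A3B liver 70 was above them only for S100a8, and narrowly. The log2 fold changes were 2.82 ± 0.88 and 2.28 ± 0.92, with adjusted p of 0.0821 and 0.134 by limma. Without A3B liver 70, the only 10-day A3B liver of this set, both passed, at 3.79 (adjusted p 0.0241) and 3.38 (adjusted p 0.0210). Without A3B liver 28 they were 1.91 and 1.43, neither passing. In the livers of sets 2 and 1 the A3B means of S100a8 were 6.64 and 15.1 times the control mean in TPM, and the SD among A3B livers was larger than their mean.

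In pancreas the values of both genes depended on single samples of either group and on the scale. S100a8 had 2.96 and 14.1 TPM in control pancreases 45 and 168, and 3.47, 3.96, 7.0, 7.07, 8.03 and 46.5 TPM in A3B pancreases 153, 137, 125, 49, 44 and 53. S100a9 had 3.88 and 22.2 TPM in the controls, and 4.99, 6.21, 9.73, 14.5, 15.0 and 80.4 TPM in A3B pancreases 137, 153, 125, 49, 44 and 53. In TPM, 5 of the 6 A3B samples lay between the 2 controls for both genes, and A3B pancreas 53 alone lay above them. After TMM scaling the log2 fold changes were -1.49 ± 0.89 for S100a8 and -1.28 ± 0.95 for S100a9, with adjusted p of 0.226 and 0.333. Without A3B pancreas 53 they were -2.56 and -2.37, and both passed as lower in A3B (adjusted p 0.00353 and 0.00610). Without control 168, the higher of the 2 controls, they were -0.87 and -0.47 (adjusted p 0.627 and 0.817). With library totals alone as the scale they were 0.59 and 0.77, when the median of all genes was 2.29. Under TMM that median was 0.09. In lung neither gene differed beyond the spread: S100a8 had 36.2, 72.7 and 77.0 TPM in controls and 50.8, 59.5 and 192 TPM in A3B lungs 69, 70 and 74, and its log2 fold change of 0.50 ± 0.59 was -0.10 without A3B lung 74.

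Retnlg, a small secreted protein of the resistin family found in mouse neutrophils, separated the groups in TPM in every tissue but passed no main test. Such separation in every comparison held for 4.7% of the 16569 genes with a value above 0 in each. In set 2 liver the controls had 0.175 and 0.785 TPM, and the A3B livers 1.42, 1.73, 1.87, 3.78, 12.7 and 23.9 TPM in mice 153, 44, 48, 137, 125 and 49. Retnlg had a log2 fold change of 3.73 ± 1.46, with an adjusted p of 0.168 by edgeR and 0.0105 by DESeq2. It was 2.88 without A3B liver 49, 3.0 without control 168 and 4.84 without control 45, and passed in none of these. In pancreas the controls had 0.243 and 1.38 TPM and the A3B pancreases 1.47, 2.43, 4.67, 5.93, 28.8 and 41.7 TPM in mice 153, 137, 125, 44, 49 and 53. All 6 lay above both controls in TPM, as did 70.8% of all genes, but after TMM scaling the groups overlapped and the log2 fold change of 2.0 ± 1.31 had an adjusted p of 0.272. That value was 1.23 without A3B pancreas 53 and 2.83 without control 168. In set 1 Retnlg was low: 0.0118 to 0.0148 TPM in control livers against 0.0392, 0.399 and 0.768 TPM in A3B livers, and 0.572, 0.698 and 1.29 TPM in control lungs against 1.31, 1.64 and 4.45 TPM in A3B lungs. The lung log2 fold change was 0.81 ± 0.34, with an adjusted p of 0.104.

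Csf3r, the G-CSF receptor, passed the test in the pancreas of set 2 and not in the liver. In liver it had 1.05 and 1.16 TPM in the controls, and 0.80, 1.57, 1.68, 1.69, 1.95 and 5.37 TPM in A3B livers 137, 48, 44, 153, 125 and 49. Apart from A3B liver 49 these were less than 2 times the controls, and the log2 fold change was 0.42 ± 0.60, or -0.07 without that liver. In pancreas it had 0.139 and 0.601 TPM in the controls (9 and 154 counts), and 2.82, 3.25, 5.44, 6.61, 6.74 and 11.0 TPM in A3B pancreases 137, 153, 44, 125, 53 and 49 (587 to 1910 counts). All 6 A3B pancreases lay above both controls in TPM, as did 70.8% of all genes. They also did so after TMM scaling, where the share over all genes was not computed. The log2 fold change was 2.20 ± 0.68, with an adjusted p of 0.0339 by edgeR. It was 1.44 without control 45 and 4.32 without control 168, so its size rests on which control is used. This call was lost in 5 of the 8 fits that left out 1 sample, where the adjusted p reached 0.0878 (without A3B 44, 49, 53 or 125, or without control 45), and without A3B pancreases 44 and 137, whose genotype label lacks the driver (2.33, adjusted p 0.0654). In set 1 the A3B livers had 1.64, 1.80 and 3.29 TPM against 0.832, 0.953 and 1.16 TPM in controls, with a log2 fold change of 0.68 ± 0.31 and an adjusted p of 0.172. The lungs had 25.9, 26 and 79.1 TPM in A3B against 15.8, 16.3 and 26.1 TPM in controls, with a log2 fold change of 0.96 ± 0.48 and an adjusted p of 0.160.

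**Figure D3:**
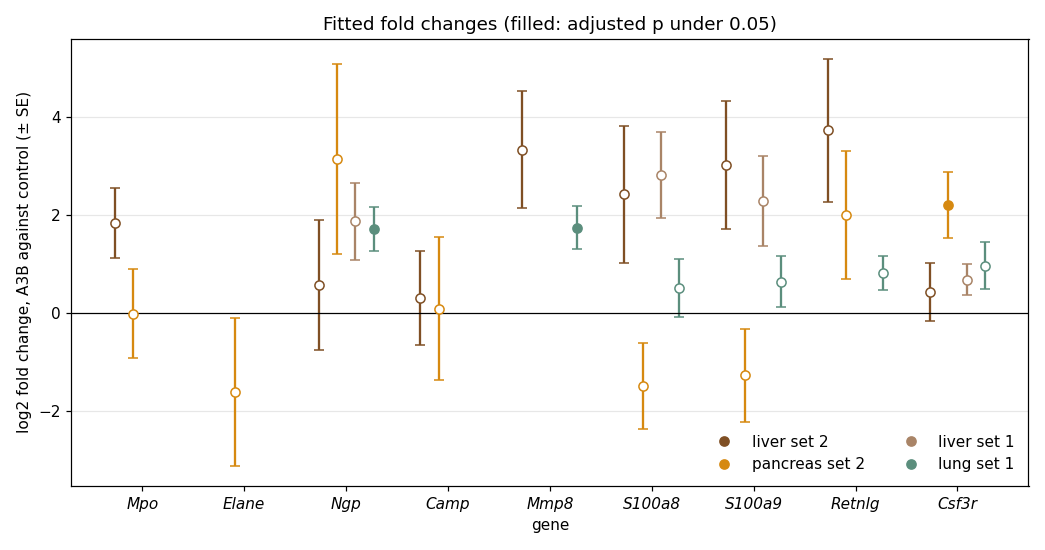
Fitted log2 fold changes of A3B against control with their SE for the genes tested in each of the 4 comparisons; filled points passed at an adjusted p under 0.05, and a value above 0 is higher in A3B. Mmp8 in pancreas is left out because its controls were at 0 counts. In liver the fitted values are above 0 in both sets, and in pancreas S100a8, S100a9, Elane and Mpo lie below 0 while Csf3r passes above it.

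Whether the change differed between tissues was tested directly. In set 2 the interaction of tissue and A3B was called for 0 of the 9 genes by edgeR, where 11.9% of all genes were; 4 of the 9 had an unadjusted p under 0.05 (28.8% of all genes) and DESeq2 called 1 (20.4% of all genes). The pancreas-minus-liver difference in log2 fold change was -3.73 ± 1.75 for S100a8 (adjusted p 0.173), -4.11 ± 1.70 for S100a9 (adjusted p 0.123; -4.17, adjusted p 0.0300 by DESeq2) and 1.95 ± 0.89 for Csf3r (adjusted p 0.158). The fitted difference was below 0 for S100a8 and S100a9 and above 0 for Csf3r, and none of the 3 passed. With 1 library left out, the S100a8 difference ran from -4.81 (without A3B pancreas 53) to -2.73 (without A3B liver 49) and passed in 0 of 16 fits. The S100a9 difference ran from -5.22 (without A3B pancreas 53, adjusted p 0.0361 by edgeR) to -3.18 (without A3B liver 49) and passed in 1 of 16 fits. The Csf3r difference ran from 1.17 (without control pancreas 45) to 4.10 (without control pancreas 168) and passed in 2 of 16, without control pancreas 168 and without A3B liver 49. In set 1 the lung-minus-liver difference was called for 0 of 5 genes tested, where 10.7% of all genes were; 0 of the 5 had an unadjusted p under 0.05 (29.9% of all genes). It was -2.32 ± 1.18 for S100a8 (adjusted p 0.213) and -1.65 ± 1.18 for S100a9 (adjusted p 0.364). Without A3B liver 70, the only 10-day A3B liver of set 1, both passed, at -3.29 and -2.75 (adjusted p 0.0314 and 0.0331 by limma). Without A3B liver 28 they were -1.41 and -0.79.

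**Figure D4:**
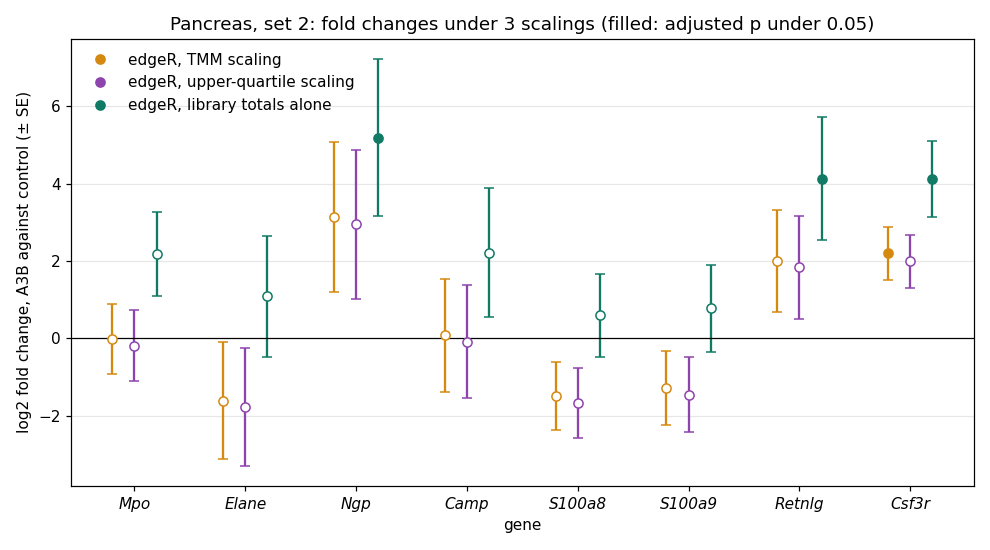
Log2 fold changes with SE in set 2 pancreas under 3 scalings of the same counts, by TMM, by upper quartile and by library totals alone; filled points passed at an adjusted p under 0.05. S100a8 and S100a9 move from -1.49 and -1.28 under TMM to 0.59 and 0.77 under library totals, and Csf3r stays above 0 under all 3.

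Ratios between 2 genes of the same library do not depend on how libraries are scaled, and they were set side by side without a test. The ratio of Csf3r to S100a9, in TPM, was 0.0271 and 0.0358 in the control pancreases and 0.364 to 0.756 in 5 of the A3B pancreases, with 0.0839 in A3B pancreas 53. In set 2 liver it ran the other way, 0.465 and 0.973 in controls and 0.0894 to 0.654 in A3B livers, with overlap. In the lung it was 0.247 to 0.486 in controls and 0.423 to 0.464 in A3B. S100a8 and S100a9 together made up 89.4% and 93.0% of the summed TPM of the 9 genes in the control pancreases, against 34.3% to 67.3% in the A3B pancreases and 57.3% and 62.6% in the control livers. The ratio of S100a8 to S100a9 was 0.637 and 0.764 in control pancreases, 0.486 to 0.794 in A3B pancreases and 0.346 to 0.642 in A3B livers of set 2, with 0.577 and 1.38 in their controls. The 4 granule genes Mpo, Elane, Ngp and Camp together made up 1.15% to 12.8% of the summed TPM in A3B pancreases against 5.58% and 1.91% in their controls, and 0.696% to 5.03% in the A3B livers of set 2 against 13.6% and 7.30% in theirs. In the livers of set 1 they made up 2.97% to 9.25% in A3B and 0% to 7.06% in controls.

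**Figure D5:**
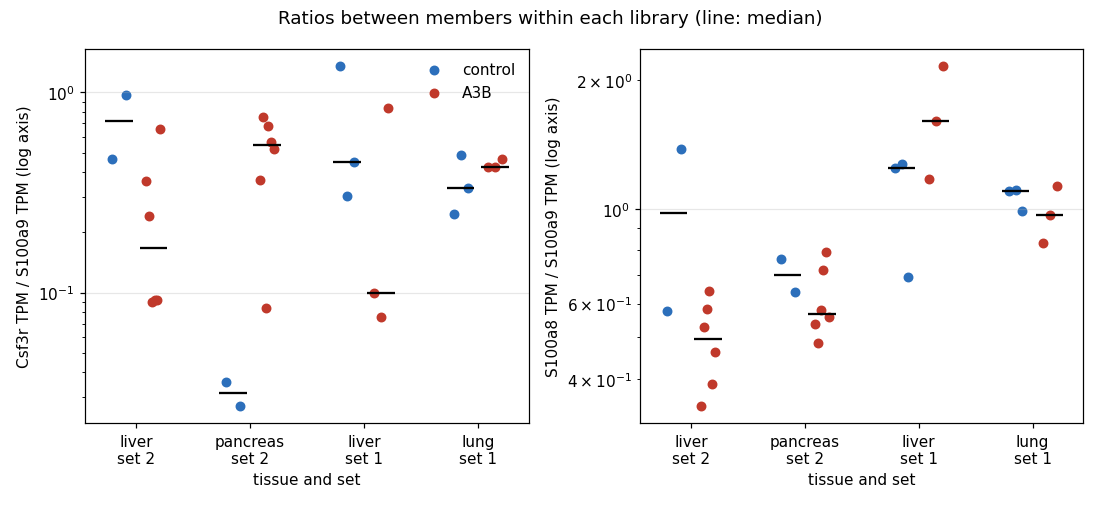
Ratios of Csf3r to S100a9 and of S100a8 to S100a9 in TPM within each library, on log axes, with 1 point per sample and the group median as a line; controls are blue and A3B samples red. The Csf3r ratio of the control pancreases, 0.0271 and 0.0358, lies below all 6 A3B pancreases, while the S100a8 ratio of those groups overlaps.

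Levels in set 1 differed between the tissues as well as between the groups. In control lungs S100a8 had a mean of 62.0 ± 22.4 TPM (SD, n = 3) against 2.11 ± 1.62 TPM (n = 3) in control livers, S100a9 58.9 ± 23.5 against 1.94 ± 1.14 TPM, Csf3r 19.4 ± 5.77 against 0.982 ± 0.167 TPM and Mmp8 3.59 ± 1.0 against 0.0374 ± 0.0447 TPM. Ngp had 1.89 ± 1.82 TPM in control lungs, 0.150 ± 0.194 TPM in control livers and 5.29 ± 5.95 TPM in A3B livers. The A3B livers, at 31.8 ± 34.2 TPM of S100a8, overlapped the control lungs through A3B liver 28 alone. In set 2, S100a8 had means of 1.46 ± 0.0371 TPM in control liver, 8.54 ± 7.89 TPM in control pancreas, 9.72 ± 13.2 TPM in A3B liver and 12.7 ± 16.7 TPM in A3B pancreas, and the values of the last 3 groups overlap. Csf3r ran from 0.370 ± 0.327 TPM in control pancreas through 1.11 ± 0.0753 TPM in control liver and 2.18 ± 1.61 TPM in A3B liver to 5.98 ± 2.96 TPM in A3B pancreas. Neighbours in that order overlap only between the 2 liver groups and between A3B liver and A3B pancreas. TPM are shares of a library, and acinar markers summed to 177210 and 190137 TPM in control pancreases and 61090 to 163622 TPM in A3B pancreases. How far this sets the order was not tested.

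Other genes of the same cell biology were counted from lists written from general knowledge. Of the specific granule list, 1 of 7 tested was higher in set 2 liver, 3 of 8 in pancreas, 1 of 4 in set 1 liver and 1 of 6 in lung, and none was lower. Here and in the lists below, the shares over all genes tested were 3.66% called in set 2 liver, 17% higher and 14.9% lower in pancreas, 7.93% called in set 1 liver, and 16.1% higher and 20.8% lower in lung. The liver call in both sets was Lcn2, which encodes lipocalin 2, an iron-sequestering protein that hepatocytes and epithelia also make: 490 to 2768 TPM in A3B livers against 5.21 and 12.8 TPM in set 2 (log2 fold change 7.21 ± 0.88, adjusted p 0.00525 by edgeR), and 140 to 210 against 2.77 to 10.8 TPM in set 1 (4.63 ± 0.45, adjusted p 0.0109 by limma). In pancreas Lcn2, Chil3 (a chitinase-like protein) and Ltf (lactoferrin) were higher, Lcn2 with 3348 to 11171 TPM against 3.01 and 3.28 TPM. Among the receptors 1 of 14 tested was higher in set 2 liver, Il1r2, a decoy receptor for interleukin 1 (6.01 ± 1.30, adjusted p 0.0381 by edgeR). In pancreas 4 of 13 were higher, Csf3r with C5ar1, Ptafr and Trem1, and 1 was lower, Ly6g, the surface marker used to sort mouse neutrophils. That call rests on 1 library: Ly6g had 0 and 406 counts in control pancreases 45 and 168, and 11 to 24 counts in the A3B pancreases. In lung 4 of 13 receptors were higher, Trem1 (1.26 ± 0.15, adjusted p 0.00358 by limma), C5ar1, Clec4d and Clec4e, and 0 of 10 passed in set 1 liver.

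Of the neutrophil-attracting ligands, Cxcl1 was higher in set 2 liver (3.87 ± 0.78, adjusted p 0.0303) and in pancreas (3.48 ± 0.97, adjusted p 0.0209 by edgeR), and had 44.2 to 967 TPM in A3B livers of set 1 against 15.1 to 31.4 TPM in controls without passing (adjusted p 0.0638 by limma). Cxcl3, a related chemokine, was lower in pancreas (-3.39 ± 0.93, adjusted p 0.0187 by edgeR). All 10 ligands together summed to 0.11 and 3.84 TPM in the control pancreases, so Cxcl3 was near the floor in the lower control. In lung 1 of 5 ligands was higher, Ppbp, a platelet chemokine. Csf3, which encodes G-CSF itself, was at no more than 1.15 TPM in any sample and was not tested in liver or pancreas. The C/EBP factor Cebpd, which acts in granule gene transcription and in the acute-phase response, was higher in all 4 comparisons, by 2.06 ± 0.38 and 2.80 ± 0.40 in the livers of sets 2 and 1, 1.54 ± 0.35 in pancreas and 0.89 ± 0.18 in lung. It was the only factor of its list to pass in liver, 1 of 6 tested in set 2 and 1 of 5 in set 1. Cebpe and Cebpa, singled out after their values were seen, had liver values below 0 that did not pass: -4.89 ± 1.21 (adjusted p 0.0567 by edgeR) and -1.02 ± 0.47 (0.230) in set 2, and -1.92 ± 0.86 (0.167 by limma) and -1.76 ± 0.59 (0.0945) in set 1. In pancreas 4 of 6 transcription factors were higher (Cebpb, Cebpa, Cebpd and Spi1) and Gfi1 was lower. Of the gelatinase granule and protease list, to which Mmp8 belongs, 4 of 5 were higher in pancreas (Mmp8, Adam8, Itgam and Itgb2) and 2 of 5 in lung (Adam8 and Mmp8), and 0 of 5 and 0 of 2 passed in the livers of sets 2 and 1. Of the cytosolic list, to which S100a8 and S100a9 belong, none of the 6 tested in set 2 liver, pancreas or lung passed. Of the azurophil granule list, to which Mpo and Elane belong, 0 of 2 tested passed in set 2 liver and 0 of 4 in pancreas. Protease inhibitors were higher in 3 of 6 in pancreas (Timp1, Serpina3n and Timp2), and in lung 1 of 4 was higher (Serpina3n) and 1 lower (Serpinb1a). Of 4 receptors and binding partners of S100a8 and S100a9, Tlr4 was higher and Bsg lower in pancreas (4 tested), and Cd36 was higher in set 1 liver (2 tested). None passed in set 2 liver (4 tested) or in lung (3 tested). In lung 2 of 5 transcription factors were higher, Cebpd and Cebpb. Bsg turned to 1.24 under library totals and 1.22 under limma on TPM, and no other called gene of the lists in this or the preceding paragraph changed sign under another scaling.

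Markers of other cells moved in the same samples, and their part in the values above was not tested. Of the acinar markers, the main cells of the pancreas, 4 of 5 were lower there (Cela2a, Pnlip, Prss2 and Cpa1), with a median log2 fold change of -3.03 and sums of 61090 to 163622 TPM in A3B against 177210 and 190137 TPM in controls; with library totals as the scale 2 were lower and 1, Ctrb1, was higher. In pancreas 6 of 10 monocyte and macrophage markers were higher, Cd68, Adgre1 and Csf1r among them, with a median log2 fold change of 2.51 against 0.09 for all genes, and their summed level was 310 to 779 TPM in A3B against 4.32 and 38.4 TPM in controls. No such marker passed in set 2 liver, where the sums were 66.5 to 546 TPM in A3B and 192 and 246 TPM in controls. In set 1 liver 1 of 10 was higher, Marco, with sums of 113 to 647 TPM in A3B against 270.2 to 289 TPM in controls. In lung 3 of 10 were higher, Marco and Mrc1 among them, and 1 lower (Ccr2), with sums of 374 to 451 TPM in A3B against 401 to 636 TPM in controls. Red cell markers fell in pancreas in 5 of 6 tested, with sums of 41.9 to 914 TPM in A3B against 2113 and 2773 TPM in controls, and 1 of 6 fell in set 2 liver, with 124 to 802 against 1326 and 4351 TPM. In lung 3 of 4 platelet markers were higher, with sums of 82.2 to 200 TPM against 26.9 to 49.4 TPM. Of the early progenitor markers, Myb was lower in pancreas and in lung, 1 of 4 tested in each. Among eosinophil, basophil and mast cell markers, Siglecf was higher and Cpa3 lower in pancreas, and Cpa3 turned to 0.59 under library totals. B cell and T cell markers passed in none of the 4 comparisons, and in pancreas control 45 was low in T cell markers (2.18 TPM in sum) and control 168 high (53.9 TPM). Of the lung epithelial markers, Sftpa1 was higher in set 1 liver (1 of 2 tested) and Sftpc lower in lung (1 of 5), and neither passed with median-of-ratios scaling. The only red cell marker tested in lung, Alas2, was lower. Hepatocyte markers passed in none of the 4 comparisons. Their sums were 103 to 971 TPM in A3B pancreases against 18.3 and 66.7 TPM in controls, without overlap, and 1 A3B liver of set 2 had 518 TPM of acinar markers against at most 48.9 TPM in its controls. In the lungs hepatocyte markers were present in both groups, up to 539 TPM in A3B and 698 TPM in controls in sum.

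Among 13567 other genes whose mean reached 1 TPM in set 2, the 5 whose log2(TPM + 1) followed the mean standardised profile of the 9 genes most closely over the 16 samples were Ighv1-53 (Pearson r 0.85), Ighv1-26 (0.84), Fibin (0.83), Ighv1-54 (0.82) and Cd200r1 (0.82). The 3 Ighv genes are antibody heavy-chain variable segments. They reached 19.2, 42.7 and 20.4 TPM in A3B pancreas 53, which is also the highest library for most of the 9 genes. The samples share 2 tissues and 2 groups, so these values are a description only.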

How the data were processed

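Tissue RNA was sequenced from 16 samples of set 2 and 12 of set 1. Per the labels and the study's methods, the authors pseudo-aligned set 2 with kallisto and deposited estimated counts and TPM per transcript (mm10), which were summed here to genes through GENCODE M21 (116640 of 119414 transcripts matched) and, for the counts, rounded. For set 1 the authors aligned reads with STAR and deposited TPM per gene, without counts, so its depth is unknown. The libraries came from a stranded kit, per the study's methods; the strand option of the quantification was not given in the sources used here. Set 2 counts were tested with edgeR 4.0.16 (quasi-likelihood, TMM factors, low counts filtered), with DESeq2 1.42.0 as the alternative. Set 1 was tested with limma 3.58.1 on log2(TPM + 1), on the genes whose mean reached 1 TPM, in R 4.3.3. P-values were Benjamini-Hochberg adjusted over all genes tested, with a threshold of 0.05, and fold changes of set 1 understate those of low genes. The code was tested on simulated data.

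All 9 genes are named, with up to 4 called genes per list of related genes and tissue, by smallest p, and the 5 genes most alike in profile. The members and lists were chosen with earlier results of these data known. Promoters are from RefSeq (GRCm38.p6). Same-numbered samples of 2 tissues come from the same mouse by the labels' mouse numbers. Their deviations from the group means correlated, across genes, at 0.32, 0.37, 0.10, 0.24 and -0.0015 in A3B mice 125, 137, 153, 44 and 49, at -0.04 in controls 45 and 168, and at 0.19 and 0.25 in mice 70 and 91 of set 1. Alternatives were other scalings, tools, filters and pseudocounts, a replicate block, and each library left out in turn. One list of related genes is not reported here.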

Additional observations from a re-analysis of the deposited data

Results flagged for a closer look

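Of the 18 groups of 6 A3B samples that the 9 genes give in set 2, 9 held 1 sample whose distance to its nearest neighbour, as a share of the group's range, was above Dixon's critical value of 0.625. Chance flags about 1 such group in 20 where values are normally distributed, TPM are skewed to high values, and the 9 genes are not independent of each other. On log2(TPM + 1), a scale tried after the data were seen, 2 of the 18 groups were past the critical value, S100a8 and Mmp8 in pancreas. A3B pancreas 53 was the high sample in 5 of these groups: S100a8 at 46.5 TPM (the next A3B pancreas at 8.03), S100a9 at 80.4 TPM (15.0), Camp at 7.91 TPM (2.10), Elane at 0.518 TPM (0.192) and Mmp8 at 1.53 TPM (0.482). A3B liver 49 was the high sample in 3, with S100a8 at 35.0 TPM (13.7), S100a9 at 60.1 TPM (21.3) and Csf3r at 5.37 TPM (1.95). Ngp was flagged in liver through A3B liver 125, at 1.56 TPM (0.492). Pancreas 49, from the same mouse as liver 49, was flagged for none of the 9 genes. What set these samples apart was not tested.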

How the results depend on the processing

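Elane, Mpo, Camp and Ngp have low counts in most libraries of set 2, which rests on 2 controls per tissue. Ngp and Camp also spread widely among A3B pancreases, from 3 to 255 and from 6 to 386 counts. What sets the precision of these genes was not tested. Of 183 fitted fold changes of the 9 genes under other settings, 16 changed sign, 9 passed where they had not and 2 no longer passed; of 395 with 1 library left out, these numbers were 27, 10 and 12. The cause of each change was not tested unless stated.

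Of the 9 genes, DESeq2 called 3 in set 2 liver (0 by edgeR) and 1, S100a9, in the pancreas-minus-liver difference (0 by edgeR). In pancreas, where edgeR with TMM called 2, library totals alone called 4 (Retnlg, Ngp, Csf3r and Mmp8), upper-quartile factors 1 (Mmp8), limma on TPM 1 (Csf3r; Mmp8 was not tested by it) and the fit without A3B pancreases 44 and 137 1 (Mmp8). In the pancreas-minus-liver difference library totals called 2 (Csf3r and Mmp8) and limma 1 (Csf3r). With 1 library left out, the members called ranged from 0 to 0 in set 2 liver, 1 to 3 in pancreas, 0 to 1 in the pancreas-minus-liver difference, 0 to 3 in set 1 liver (3 without A3B liver 70), 0 to 2 in lung and 0 to 2 in the lung-minus-liver difference (S100a8 and S100a9 without A3B liver 70).

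Signs turned in pancreas to log2 fold changes of 0.59 (S100a8), 0.77 (S100a9), 1.09 (Elane) and 2.19 (Mpo) under library totals, 0.25 (S100a8) and 0.45 (S100a9) under limma, -0.086 (Camp) under upper-quartile factors, and for Mpo to 0.025 without the filter and 0.21 without pancreases 44 and 137. In the pancreas-minus-liver difference they turned to 0.38 for Retnlg (limma), 1.51 and 0.023 for Camp (library totals, no filter) and 1.85 for Elane (library totals). In the lung-minus-liver difference a pseudocount of 0.1 gave -0.068 for Csf3r and -1.09 for Mmp8. With 1 library left out, signs turned within -0.71 to 2.99 (Ngp), -0.31 to 1.13 (Camp) and -0.071 to 0.55 (Csf3r) in set 2 liver, -1.34 to 0.48 (Camp), -2.72 to 6.17 (Elane) and -0.60 to 0.20 (Mpo) in pancreas, -1.46 to 0.52 (Camp) and -1.32 to 7.27 (Elane) in the pancreas-minus-liver difference, -0.10 to 0.85 (S100a8) in lung, and -1.08 to 0.65 (Ngp) and -0.24 to 0.54 (Csf3r) in the lung-minus-liver difference.

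With the mouse as a replicate block, 0 of the 9 genes were called in either tissue difference, as without it, and Ngp turned to 0.55 in lung minus liver; the block moved all genes called from 2368 to 1567 in pancreas minus liver and from 1448 to 2607 in lung minus liver. Over all genes, 636 were called in set 2 liver (2351 by DESeq2, 1120 by library totals), 6093 in pancreas (13683 by library totals, 11553 by limma), 2368 in the pancreas-minus-liver difference (3763, 8068 and 7829 by DESeq2, library totals and limma), 913 in set 1 liver (54 without the filter) and 1448 in the lung-minus-liver difference (941 by median-of-ratios scaling). With 1 library left out these ranged from 73 to 1599, 3829 to 5820, 545 to 3405, 1 to 1562 and 571 to 3072, and in lung (5029) from 2998 to 4579. The share of higher calls was 34.3% in set 2 liver (54.9% by DESeq2, 78.5% by library totals, 74.0% by limma), 53.3% in pancreas (98.5% by library totals, 98.7% by limma, 41.5% by upper-quartile factors), 57.7% in the pancreas-minus-liver difference (97.2%, 98.2% and 37.5% by the same), 76.6% in set 1 liver (45.7% by median-of-ratios scaling) and 18% in the lung-minus-liver difference (56.0%).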
